A study of Mus musculus with 4 samples.

Results

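Long noncoding RNAs (lncRNAs) were examined as partners of miRNAs in mouse mesangial cells (MMC), the contractile cells of the kidney glomerulus. The 10 genes Malat1, Neat1, Gas5, Meg3, Rian, Mirg, Kcnq1ot1, H19, Tug1 and Norad were chosen by name, and every chimeric read that lists one of them as its target was taken. Of these genes, 8 were listed, among 8440 target genes in all. They held 788 of the 36318 chimeric reads and 641 of the 29067 distinct reads, where a read sequence is counted once in each library that holds it.

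The reads come from AGO2-CLASH, in which a miRNA and the RNA it lies next to on AGO2 are ligated and sequenced as 1 hybrid (chimeric) read. MMC were isolated from WT C57BL/6J mice and from miR-379KO mice, in which a CRISPR-Cas9 nickase with paired guide RNAs had deleted miR-379 in the C57BL/6J germline, and were grown as primary cultures without a treatment named in the labels. There were 2 libraries of each genotype, lettered A and B, and the study compared the genotypes to find RNAs bound by miR-379. The labels do not say that the libraries came from separate animals or cultures, so a p-value here measures the spread between these libraries.

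The depth was 16324 chimeric reads for WT A, 7192 for WT B, 6326 for miR-379KO A and 6476 for miR-379KO B. Shares below 3 reads were taken as too small to show, which is 1.84 per 10000 for WT A and from 4.17 to 4.74 for the other libraries. Since no molecular identifiers were used, intervals and these limits stand for counting error alone. miR-379 itself was listed in 3 reads of WT A and 1 of WT B, in 0 reads of either miR-379KO library, and in 0 reads with any of the lncRNAs. Of 12 mesangial marker genes, 9 were listed as targets, from 483 reads for Fn1, 118 for Col1a1 and 86 for Acta2 down to 4 for Pdgfrb and 2 for Des. Itga8, Gata3 and Thy1 were not listed. Of the other markers, 3 of 5 podocyte ones had 5 reads together, and 0 of 5 endothelial, 0 of 5 tubule and 0 of 3 leukocyte ones were listed. A number of chimeric reads is not an expression level, and fewer cells carrying an RNA cannot be told apart from less of it per cell.

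Malat1 and Neat1 are neighbouring nuclear lncRNAs. Malat1 gathers in nuclear speckles and Neat1 builds paraspeckles, for which its long isoform is needed. Gas5 hosts small nucleolar RNAs (snoRNAs) in its introns, which guide the modification of ribosomal RNA, and Meg3, Rian and Mirg are maternally expressed lncRNAs of the imprinted Dlk1-Dio3 region, to which the miR-379 cluster belongs. A miRNA mostly recognises its target through its seed, the bases near its 5′ end, and several lncRNAs have been described as miRNA partners.

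The miRNAs on which the results turn are shown first, as RefSeq gives them for GRCm38.p6, with the seed (bases 2 to 8) in capitals. By reads over the lncRNAs, let-7b-5p came first (125), followed by miR-1195 (108), miR-1839-3p (40, of which no sequence is shown) and miR-690 (29), and miR-1966-3p and miR-709 were level (16 each), of which miR-1966-3p was kept as the fifth. The others were chosen after their values were seen. let-7a, let-7b and let-7c share the seed GAGGUAG, and the seed of miR-196a-5p is that of let-7 moved by 1 base.
let-7b-5p: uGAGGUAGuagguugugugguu
let-7a-5p: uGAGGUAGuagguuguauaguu
let-7c-5p: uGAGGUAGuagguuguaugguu
miR-196a-5p: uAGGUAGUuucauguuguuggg
miR-26a-5p: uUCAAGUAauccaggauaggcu
miR-690: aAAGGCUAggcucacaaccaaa
miR-1195: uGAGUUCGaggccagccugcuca
miR-1966-3p: uUUCUGACucaacucucccuuag
miR-23a-3p: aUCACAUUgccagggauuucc
miR-130a-3p: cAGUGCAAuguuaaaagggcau

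The targets on which the results turn are shown beside them, as GRCm38 reads on the strand of the gene. The capitals mark the longest stretch that is complementary, base for base, to the miRNA named. Gm23212 (chr1:161036682-161036741, plus strand) and Gm25789 (chr1:161038308-161038383, plus strand) are snoRNA genes within Gas5. The Neat1 sites lie at chr19:5828546-5828581 for miR-690 and at chr19:5834676-5834757 for let-7b, and the Malat1 site at chr19:5799276-5799343, all on the minus strand. The H19 site lies at chr7:142575791-142575847 on the minus strand.
Gm23212 with let-7b-5p and with miR-196a-5p: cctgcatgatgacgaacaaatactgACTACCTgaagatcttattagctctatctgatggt
Gm25789 with let-7b-5p: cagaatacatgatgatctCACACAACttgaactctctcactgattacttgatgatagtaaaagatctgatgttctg
Gm25789 with miR-26a-5p: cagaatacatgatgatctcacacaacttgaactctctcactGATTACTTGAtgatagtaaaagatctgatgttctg
Neat1 with miR-690: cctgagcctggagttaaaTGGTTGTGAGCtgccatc
Neat1 with let-7b-5p: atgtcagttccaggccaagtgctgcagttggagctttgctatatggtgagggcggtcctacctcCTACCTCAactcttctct
Malat1 with miR-23a-3p: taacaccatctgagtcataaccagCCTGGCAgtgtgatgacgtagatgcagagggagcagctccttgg
H19 with miR-130a-3p: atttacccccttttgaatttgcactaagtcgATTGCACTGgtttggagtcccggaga

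Malat1, Neat1 and Gas5 carried nearly all of the lncRNA reads. Malat1 had 276 chimeric reads, Neat1 255 and Gas5 211, which placed them 15th, 16th and 17th among all target genes by reads. Rian had 19 reads, Kcnq1ot1 16, Meg3 6, Tug1 4 and H19 1. Mirg and Norad had 0 reads under these names, which by the limit of 3 reads allows a share of 1.84 per 10000 in WT A and of 4.17 to 4.74 in the other libraries, and by the upper 95% Clopper-Pearson limits one of 2.26 and of 5.13 to 5.83. Norad had 1 read, in miR-379KO A, under its older symbol 2900097C17Rik, with 22 nt of miR-877-3p.

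Together the lncRNAs took 249 of every 10000 reads of WT A (226 to 274 by 95% Clopper-Pearson limits) and 189 in WT B (159 to 223), against 164 (135 to 199) and 218 (183.6 to 256.3) in miR-379KO A and B. The genotypes overlapped, with a mean of 219 ± 42.6 in WT and 191 ± 37.7 in miR-379KO (SD, n = 2 each). The order of the means depended on the reads used. Per 10000 of the reads kept, it turned to 287 in WT and 304 in miR-379KO with miRNA alignments of at least 16 nt, to 267 and 272 without mismatch or gap, and to 189.4 and 212.3 without reads whose extended miRNA segment matches the genome, while leaving out own-locus and snoRNA reads (both described below) gave 148 and 74.9 per 10000 of all chimeric reads. Reads listed with a single gene gave 215 and 129 per 10000 of the reads kept. Of the 611 read sequences behind the members, 22 (3.6%) occurred in more than 1 library, beside 2.21% of all 28227 sequences.

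**Figure D1:**
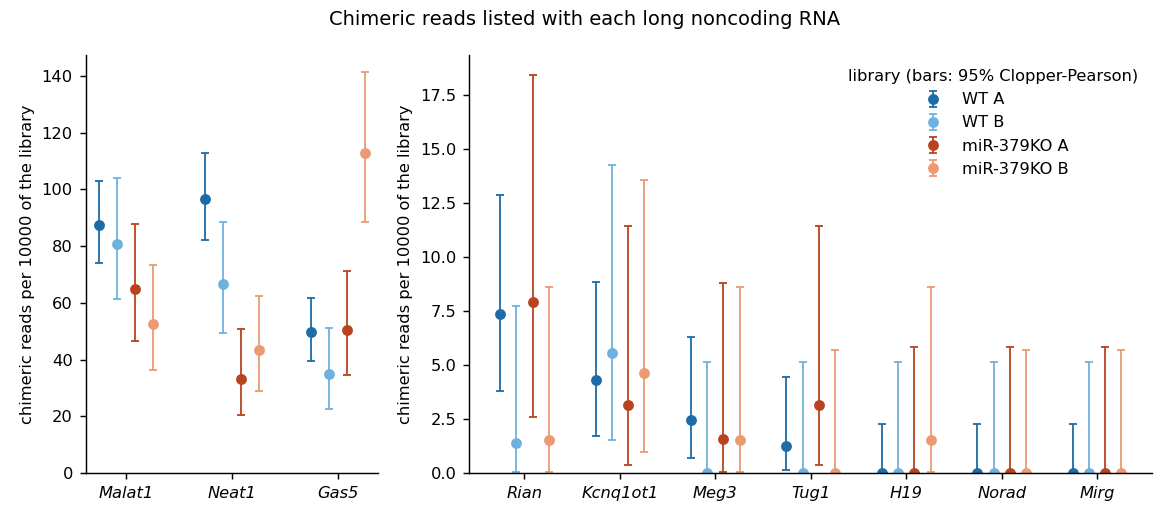
Chimeric reads per 10000 in each of the 4 libraries (points, vertical axes, with a smaller scale in the right panel) for each lncRNA (horizontal axis), with 95% Clopper-Pearson intervals as bars. Malat1, Neat1 and Gas5 lie between 33.2 and 113 per 10000, and the highest value of the other genes is 7.90, for Rian in miR-379KO A.

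Genotypes were compared by edgeR's quasi-likelihood test on all 686 target genes with at least 10 reads. No gene was called at an adjusted p-value of 0.05 (0.0%), and 24 (3.5%) had an unadjusted p under 0.05. DESeq2 also called 0 genes, with 8 at an unadjusted p under 0.05. Log2 fold changes are WT over miR-379KO, and their median over the 686 genes was 0.25. Over the 5 lncRNAs tested the median was 0.19, with 0 called, of which 0 rose and 0 fell.

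Malat1 had 143 reads in WT A and 58 in WT B, against 41 and 34 in miR-379KO A and B, or 87.6, 80.6, 64.8 and 52.5 per 10000. Both WT libraries lay above both miR-379KO libraries, which also held for 20.8% of the genes tested. Without genome-contained miRNA segments, which are described below, the shares among all chimeric reads were 44.1 and 37.5 in WT and 39.5 and 23.2 in miR-379KO, and the genotypes overlapped. The log2 fold change was 0.41 (standard error 0.57, edgeR adjusted p = 0.96), and a two-sided exact permutation test of the shares gave p = 0.33, which is the lowest p that 2 libraries against 2 can reach.

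Neat1 had 158 reads in WT A and 48 in WT B, against 21 and 28 in miR-379KO A and B, or 96.8, 66.7, 33.2 and 43.2 per 10000. Both WT libraries were again the higher ones, as for 20.8% of the genes tested. The log2 fold change was 1.01 (standard error 0.60, edgeR adjusted p = 0.96, unadjusted 0.095; exact permutation p = 0.33). Reads that list miR-1195 took 44.7 and 32.0 per 10000 in WT A and B and 9.48 and 9.26 in miR-379KO A and B, and without them the shares were 52.1 and 34.8 in WT and 23.7 and 33.97 in miR-379KO. Without genome-contained segments the shares of Neat1 among all chimeric reads were 30.6 and 25.03 in WT and 12.6 and 27.8 in miR-379KO, the genotypes overlapped, and the log2 fold change was 0.39.

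Gas5 had 81 reads in WT A and 25 in WT B, against 32 and 73 in miR-379KO A and B, or 49.6, 34.8, 50.6 and 113 per 10000. miR-379KO B was the high library, and miR-379KO A lay above WT A by less than their intervals. The log2 fold change was -1.02 (standard error 0.59, edgeR adjusted p = 0.96, unadjusted 0.086; exact permutation p = 0.33), and both miR-379KO libraries above both WT libraries was seen in 12.2% of the genes tested. Rian (log2 fold change -0.02, standard error 1.21) and Kcnq1ot1 (0.19, standard error 1.17) had edgeR adjusted p-values of 0.99 and 0.97.

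A listed miRNA segment can be a few bases long, so the reads were sorted by what that segment is. A segment was called genome-contained where it matches GRCm38 together with as many as 10 neighbouring nt of the read to its left and right, without mismatch and outside miRNA genes. It was called own-locus where it lies, with its flanks or the flank away from the target, in the lncRNA's own gene. A long sense segment is one of at least 16 nt that matches the miRNA on its own strand without mismatch and is not genome-contained. Of the 641 distinct reads, 285 (44.5%, 95% interval 40.6 to 48.4) were genome-contained, beside 40.3% over all other target genes, and 173 (27.0%) held a long sense segment, beside 23.9%. Genome-contained segments made up 51.4% of the distinct lncRNA reads in WT A and 48.4% in WT B, against 37.2% and 26.2% in miR-379KO A and B. Over all target genes they made up 47.8% and 31.7% in WT A and B, and 31.9% and 34.4% in miR-379KO A and B, so that there WT A alone stood apart. Without them the shares of Malat1 and of Neat1 overlapped between genotypes, and the mean share of the lncRNAs among the reads kept was higher in miR-379KO, as given above.

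The 3 main genes differed in these classes. Long sense segments made up 113 of the 169 distinct Gas5 reads (66.9%), 37 of 194 for Neat1 (19.1%) and 17 of 237 for Malat1 (7.17%). Segments found elsewhere in the genome made up 106 of the Neat1 reads and 94 of the Malat1 reads. Own-locus segments made up 42 of the Malat1 reads, 12 of the Neat1 reads and 0 of the Gas5 reads.

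**Figure D2:**
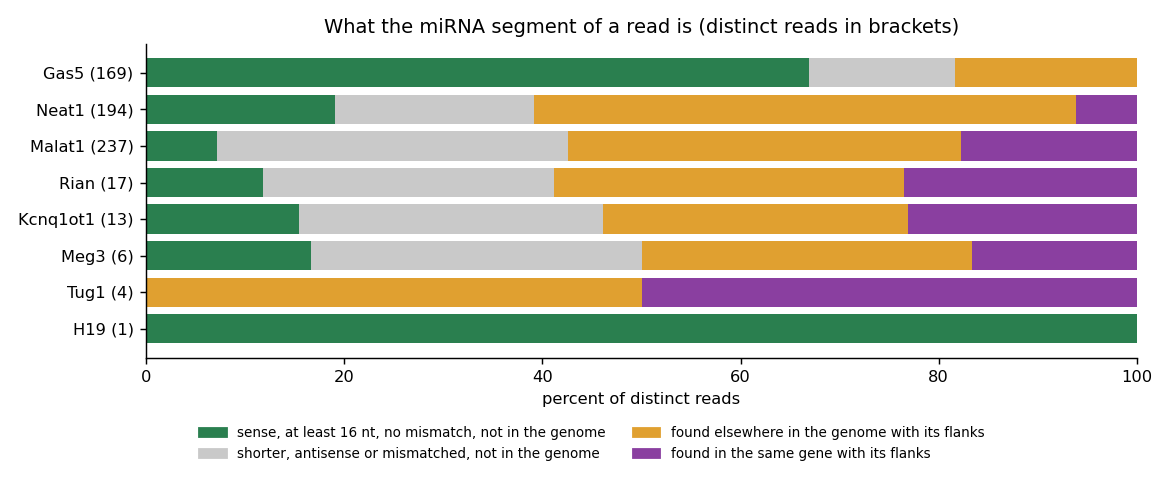
Share of distinct reads (horizontal axis, percent) of each lncRNA in the 4 classes of miRNA segment, with the number of distinct reads in brackets. Gas5 is made up mostly of long sense segments (66.9%), Neat1 of segments found elsewhere in the genome (54.6%), and Malat1 of segments found elsewhere (39.7%) and of short, antisense or mismatched ones (35.4%).

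The targets lay on the sense strand of the lncRNA in 99.4% of the distinct reads (637 of 641, 95% interval 98.4 to 99.8), against 70.9% over all other target genes. Here and below, a read listed with several genes stands once for each, so the values over other genes include the Gas5 reads that are also listed under a snoRNA gene, unless left out as stated. The 4 antisense targets were 3 of the 13 Kcnq1ot1 reads and 1 of the 17 Rian reads. Among long sense segments the gap was narrow, with 100% of the lncRNA targets and 98.0% of the others in sense. The miRNA segment came first in the read in 64.6% of the Malat1 reads, 36.6% of the Neat1 reads and 34.9% of the Gas5 reads, against 54.8% over other genes.

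A match to the seed (the reverse complement of miRNA bases 2 to 7) stood in the target segment of 133 lncRNA reads (20.7%, 95% interval 17.7 to 24.1), against 29.9% over other genes. By gene it was 22.8% for Malat1, 22.2% for Neat1 and 16.6% for Gas5. The deposited minimum free energy (MFE) of the pair, of which the files name no unit, had a median of -20.92 over the lncRNA pairs and -23.50 over other pairs. Here each listing of a read with a miRNA and a transcript was counted, which gave 1032 lncRNA pairs. With the lowest MFE of each distinct lncRNA read, the median was -22.0, and the same value for other genes is not given. It was -20.51 for Malat1, -22.97 for Neat1 and -19.09 for Gas5, and the lowest MFE, -43.22, belonged to a Malat1 pair with miR-3470a.

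Nearly all Gas5 reads fell on snoRNA genes within it. Of the 169 distinct reads, 168 (210 of 211 reads) lay by at least 50% of the target on 1 of 7 annotated snoRNA genes, and 166 were also listed with another gene. Only 1 of the 169 targets, itself on a snoRNA gene, lay within an exon of a spliced Gas5 transcript. Nearly all of these reads thus lay outside spliced Gas5. The targets on Gm23212, which lies at 2261 to 2320 from the 5′ end of Gas5, spanned 2261 to 2318. Those on Gm25789, which lies at 3887 to 3962, spanned 3890 to 3957. Whether the reads came from a snoRNA or from unspliced Gas5 RNA was not tested. The read off the snoRNA genes was in WT A. Gm23212 held 68 distinct reads, with 31 reads in WT A and 10 in WT B, against 14 and 38 in miR-379KO A and B. Gm25789 held 58, with 21, 11, 12 and 28 reads in the same order of libraries. Both were hit in every library. Gm22489 held 14, Snord80 14, Snord47 10, Gm22357 3 and Mir5117, which the annotation gives as a snoRNA, 1.

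**Figure D3:**
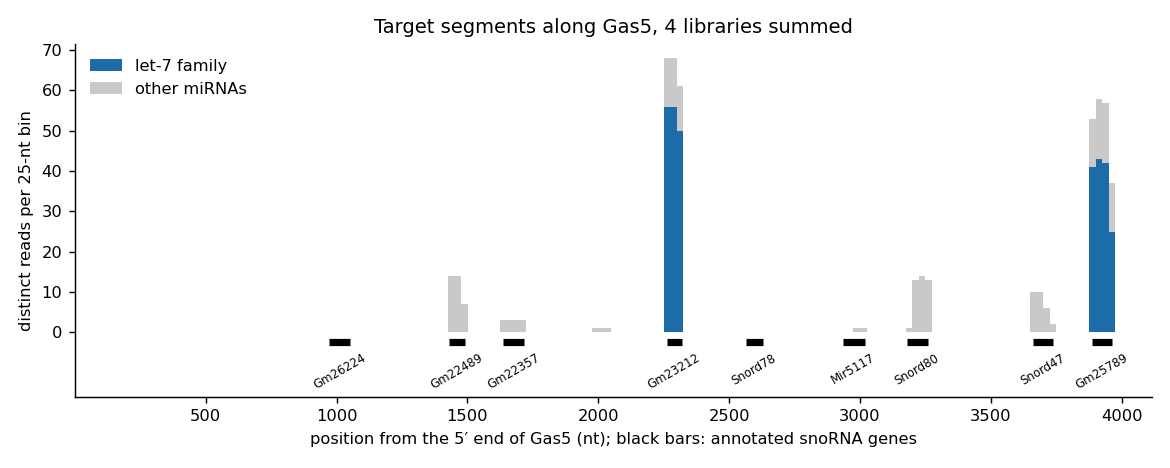
Distinct reads overlapping each 25-nt bin (vertical axis) against the position from the 5′ end of the Gas5 gene (horizontal axis, nt), with let-7 reads set apart from others and the snoRNA genes marked below. The highest bars stand over Gm23212, with 68 distinct reads, and Gm25789, with 58.

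let-7b-5p, of a family known for holding back cell proliferation, was the main partner of both snoRNA genes. On Gm23212 it was listed in 43 distinct reads, with 11 reads in WT A and 10 in WT B, against 14 and 27 in miR-379KO A and B. On Gm25789 it was listed in 43 distinct reads too, with 12, 9, 11 and 25 reads. All 4 libraries held both pairs, and miR-379KO B held the most reads of each. The median segment of let-7b was 22 nt on both, the length of the whole miRNA, and 36 and 43 of the reads held long sense segments.

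In 0 of the 92 long let-7 family reads of Gas5 did the target hold the let-7 seed match TACCTC, against 438 of 1633 (26.8%) on other genes, leaving out reads that also list a lncRNA. The 92 reads lay on Gm23212 and Gm25789, neither of which holds TACCTC. They stand for these sequences and not for separate targets. The stretches paired instead are those in capitals above. On Gm23212 it is ACTACCT, which pairs with bases 3 to 9 of let-7b, and on Gm25789 CACACAAC, which pairs with bases 12 to 19. Over all, the longest stretch of let-7 pairing had a median of 7 nt on Gas5 and of 6 nt on other genes. The MFE was -18.18 for let-7b on Gm23212 and -24.61 on Gm25789.

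An example of a let-7b and Gm25789 read, from WT A, is shown because it holds the whole miRNA, in capitals, joined to the snoRNA. The target segment lies at chr1:161038316-161038361.
Gas5 read with let-7b-5p: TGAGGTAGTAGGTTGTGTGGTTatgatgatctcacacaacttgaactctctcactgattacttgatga

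The letters CTACCT, which pair with bases 3 to 8 of let-7 and 2 to 7 of miR-196a, stood in 67 of the 68 Gm23212 targets (98.5%) and in 3.18% of the 29534 sense target segments of other genes, again without reads that also list a lncRNA (searched on the strand of the target). All Gm23212 targets come from the same short gene, whose sequence holds the letters, so their share describes that site alone. miR-196a-5p was listed with Gm23212 in 11 distinct reads, with 10 reads in WT A, 4 in miR-379KO B and 0 in the other libraries. All 11 held its seed match and had an MFE of -19.32. The related let-7i-5p was listed in 8 distinct reads on Gm23212, miR-98-5p in 3 and let-7g-5p in 2.

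On Gm25789, miR-26a-5p was listed in 4 distinct reads and miR-26b-5p in 2, and all 6 held the seed match. The longest stretch, GATTACTTGA, pairs with bases 2 to 11 of miR-26a, a run of 10 bases. miR-145a-5p was listed in 4 distinct reads on Gm22489, in 3 libraries, with no seed match.

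The let-7 family was listed with Gas5 in 32 reads of WT A and 19 of WT B, against 25 and 59 in miR-379KO A and B. That was 39.5%, 76.0%, 78.1% and 80.8% of the Gas5 reads, so WT A stood apart from the other libraries. The let-7 family itself made up 1.45% of all reads in WT A and 5.08% in WT B, against 6.92% and 7.35% in miR-379KO A and B. As a share of the let-7 reads of each library, Gas5 took 13.5%, 5.21%, 5.71% and 12.4%, so that WT A and miR-379KO B lay above the other libraries and the genotypes overlapped. The part of the let-7 level in the Gas5 reads was not tested.

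Malat1 (chr19:5795690-5802672, minus strand, 6983 nt) carried its reads in many places. At least 3 distinct sense reads overlapped at 25 sites, which held 194 of the 237 distinct reads. From the 5′ end, the distinct reads numbered 47 in bases 1 to 1745, 51 in 1746 to 3491, 93 in 3492 to 5237 and 46 in 5238 to 6983. The 3 highest summits, at 3691 to 3692, 4547 to 4563 and 232 to 249, held 29, 25 and 22 distinct reads, and 0 of these held a long sense segment.

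The highest summit was made of reads listed with miR-1839-3p, which had 2 reads on Malat1 in WT A and 20 in WT B, against 9 and 9 in miR-379KO A and B. Malat1 held 40 of the 42 reads of this miRNA over all genes. In 27 of its 30 distinct reads the miRNA segment, of 12 nt in the median, was own-locus. Its median position was 3560 in Malat1, with a median distance of 119 nt to the target. In 1 of these reads the target lay at 407 to 453, away from the highest summit. WT A, the deepest library, held the fewest of these reads. An example from WT B, with the bases listed as miRNA in capitals and the target at chr19:5798886-5799002, has both segments in Malat1.
Malat1 read with miR-1839-3p: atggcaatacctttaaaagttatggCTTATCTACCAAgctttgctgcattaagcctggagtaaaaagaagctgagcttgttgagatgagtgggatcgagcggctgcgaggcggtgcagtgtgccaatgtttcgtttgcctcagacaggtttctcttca

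Own-locus reads were not only those of miR-1839-3p. Over all lncRNAs there were 64 distinct reads (87 reads) listed with 29 pairs of gene and miRNA, all 64 on the sense strand, with a median distance of 153 nt between the segment and the target. miR-7578 had 5 such distinct reads on Malat1, with a median position of 4835 for the segment and of 4390 for the start of the target. The targets of 4 lay at the summit at 4400 to 4438, and that of 1 at the summit at 32 to 95. Own-locus reads of Malat1 numbered 5 in WT A and 28 in WT B, against 20 and 8 in miR-379KO A and B. Without them the shares of Malat1 were 84.5 and 41.7 per 10000 in WT and 33.2 and 40.1 in miR-379KO, so that WT B and miR-379KO B lay close together.

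miR-1966-3p was listed at the next summit, with 7 reads in WT A and 4 in WT B, against 2 and 3 in miR-379KO A and B. All 14 distinct segments were at most 14 nt long, antisense to the miRNA and genome-contained. The summit near the 5′ end held 11 miRNAs with short segments, 16 of 22 genome-contained, and had 16 reads in WT A and 6 in WT B, against 1 and 3 in miR-379KO A and B.

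Long sense segments on Malat1 gathered at 2 places. At 3379 to 3397, miR-23b-3p and miR-23a-3p, which share a seed, were listed in 5 distinct reads with segments of 21 nt, in WT A, WT B and miR-379KO A. Their MFE was -27.06, below the Malat1 median. No exact seed match stood in the target, and the longest exact stretch, CCTGGCA, pairs with bases 8 to 14 of miR-23a. In the site shown above, the next base, a g, faces the U of base 7, a G:U pair that was not counted as a match. The bases tgtgat after it pair with bases 1 to 6, so the seed is paired but for this G:U. At 4825, miR-709 was listed in 6 distinct reads, 4 of them long sense segments from 3 libraries, and all 6 held the seed match. Near the 3′ end, let-7c-5p had 1 read in WT B and let-7b-5p 1 in miR-379KO B, both with the let-7 seed match.

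**Figure D4:**
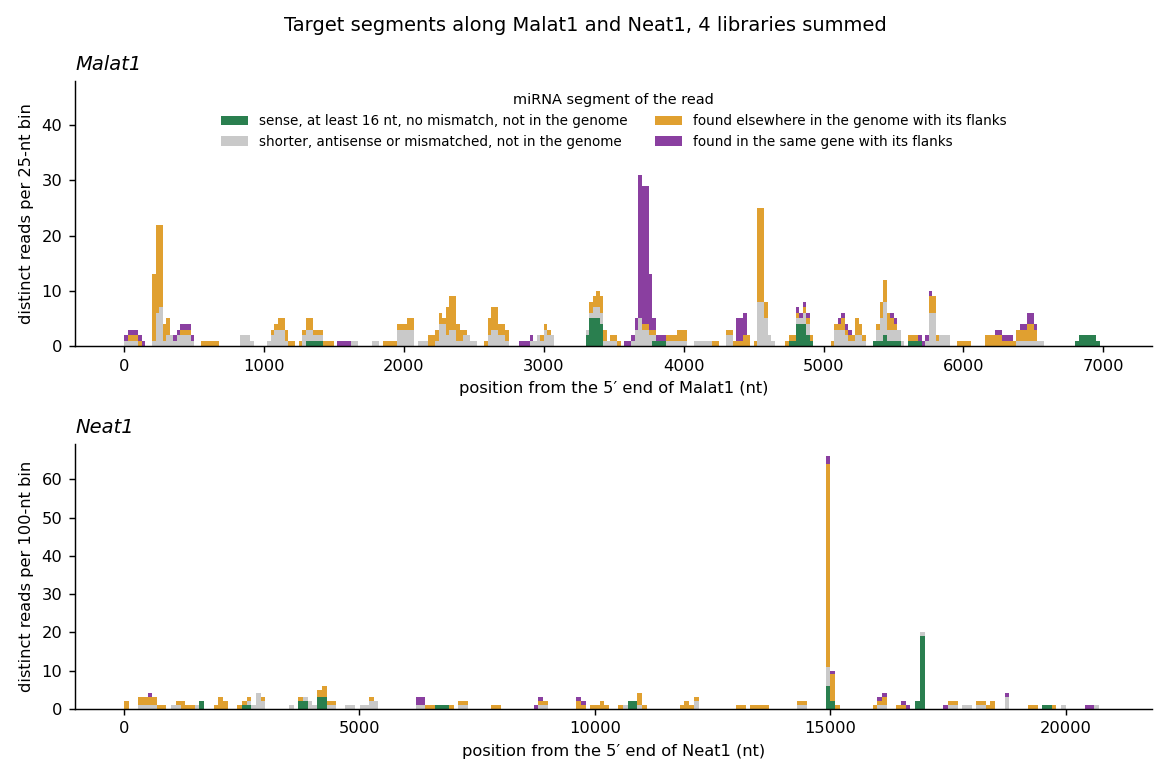
Distinct reads overlapping each bin (vertical axes; bins of 25 nt for Malat1 and 100 nt for Neat1) against the position from the 5′ end of each RNA (horizontal axes, nt), coloured by the class of the miRNA segment, with the 4 libraries summed. The highest Malat1 bars, near position 3691, are mostly own-locus, and the highest Neat1 bar, at 14978, is mostly of segments found elsewhere in the genome, while the bar at 16916 is mostly of long sense segments.

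Neat1 (chr19:5824708-5845478, minus strand, 20771 nt) has a short and a long isoform that share their 5′ end. Of 194 distinct reads, 166 (85.6%) lay beyond the 3183 nt of the short isoform, in a stretch that makes up 84.7% of the gene, and so did 34 of the 37 long sense segments (91.9%). Without the 2 highest summits, which are described next and lie in repeats, 80 of 108 reads (74.1%) lay there. Repeats marked by soft-masking covered over 50% of the target in 96 reads (49.5%), against 14.9% of the gene. There were 13 sites.

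The highest Neat1 summit, at 14978 to 14993, held 66 distinct reads, with 72 reads in WT A and 22 in WT B, against 7 and 6 in miR-379KO A and B. All 66 targets were soft-masked, and 64 of the reads were listed with miR-1195. Of the 67 distinct Neat1 reads with miR-1195, 57 were genome-contained and 5 held a long sense segment. Both WT libraries lay above both miR-379KO libraries here, as in Neat1 as a whole and in 20.8% of the genes tested.

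The next summit, at 16916 to 16933, was of another kind. It held 20 distinct reads with 9 reads in WT A and 6 in WT B, against 3 and 6 in miR-379KO A and B, all listed with miR-690, and 19 of them held a long sense segment. All 20 targets were soft-masked. No seed match was present, and the longest stretch, TGGTTGTGAGC, pairs with bases 10 to 20 of miR-690, with an MFE of -23.28. miR-690 was listed in 2526 reads over all genes, 29 of them with the lncRNAs. Of the other 18 long sense segments of Neat1, 6 lay at the highest summit and 3 at 4203 to 4220.

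let-7 was listed with Neat1 in 3 reads of WT A and 1 of WT B, against 2 and 1 in miR-379KO A and B. let-7b-5p lay at 10722 to 10803, with 2 and 1 reads in miR-379KO A and B and 0 in WT, and its target holds the full match CTACCTCA to bases 1 to 8. let-7a-5p (3 reads in WT A) and let-7c-5p (1 in WT B) lay near 4203 without a seed match and had higher MFE, -14.8 and -17.01, than let-7b, -21.34. On Neat1 and Malat1 together, 4 of the 7 long let-7 reads held the seed match, where the Gas5 reads, all on Gm23212 and Gm25789, held 0 of 92.

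The imprinted lncRNAs next to the miR-379 cluster carried few reads. Rian had 12 reads in WT A and 1 in WT B, against 5 and 1 in miR-379KO A and B, and both A libraries lay above both B libraries. Meg3 had 4, 0, 1 and 1. Mirg had 0 in each library, although 14 miRNA genes are annotated inside it and 20 of their mature miRNAs were listed with other genes, in 302 reads.

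Of the 17 distinct Rian reads, 10 lay on 4 snoRNA genes, AF357425 with 4, Gm23474 with 3, Gm26922 with 2 and DQ267100 with 1. The AF357425 reads came from every library but WT B, and their 4 miRNAs differed from read to read. Only 2 Rian reads held a long sense segment. One of them, from miR-379KO A, joined the whole miR-423-3p to AF357425 (target at chr12:109636014-109636080, plus strand) at an MFE of -30.08, and the other, with 2 reads in WT A, joined miR-690 to position 16385. Both are shown with the miRNA in capitals.
Rian read with miR-423-3p: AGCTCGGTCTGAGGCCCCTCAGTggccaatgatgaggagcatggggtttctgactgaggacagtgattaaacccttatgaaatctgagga
Rian read with miR-690: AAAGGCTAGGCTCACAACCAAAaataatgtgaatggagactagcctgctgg

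miR-7077-3p was the miRNA with most Rian reads, 3 in miR-379KO A, and these were own-locus reads that joined position 51941 to 56812. Meg3 held 1 long sense segment, of let-7b-5p in miR-379KO B (target at chr12:109546481-109546520, plus strand), with an MFE of -20.92 and no seed match.
Meg3 read with let-7b-5p: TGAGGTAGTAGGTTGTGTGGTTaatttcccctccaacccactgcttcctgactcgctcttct

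miRNAs of the miR-379 cluster were almost never listed with the lncRNAs. Of 71 mature miRNAs of the cluster, 49 were listed, with 692 reads over all genes and 2 with the lncRNAs, both in WT A. One joined 13 nt of miR-667-3p, antisense, to Meg3 at 1121, where the segment was own-locus at 1096, and the other joined 12 nt of miR-329-3p to Neat1, and both segments were genome-contained. The miRNAs inside Meg3 had 68 reads over all genes and 0 with the lncRNAs. Those inside Rian had 46 and 2, both of miR-1188-3p with Malat1 in WT A. These segments were 13 nt long, held a mismatch or gap, and were genome-contained. The miRNA of H19 was listed as miR-675-5p in 2 reads of WT B with Neat1, a segment that lies in Neat1 itself at 349. None of the 6 other genes of the Dlk1-Dio3 region (Dlk1, Rtl1, Dio3, Dio3os, Begain and B830012L14Rik) was listed as a target.

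Kcnq1ot1, the antisense RNA of an imprinted region on chromosome 7, had 7 reads in WT A and 4 in WT B, against 2 and 3 in miR-379KO A and B, and the genotypes overlapped as shares (4.29, 5.56, 3.16 and 4.63 per 10000). Its 13 distinct reads were spread from 7868 to 77192. miR-466h-5p, tied with other miRNAs for the most reads, had 2 own-locus reads in WT B. The 2 long sense segments were of let-7b-5p in miR-379KO A, at 32492, and of the whole miR-155-5p in miR-379KO B, at 77192, with an MFE of -16.41.

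H19, another imprinted lncRNA, had 1 read, in miR-379KO B, that joined the whole of miR-130a-3p to position 2297. Its target held the seed match, and the longest stretch, ATTGCACTG, pairs with bases 1 to 9 of the miRNA. The MFE was -16.4. The read is shown with the miRNA in capitals.
H19 read with miR-130a-3p: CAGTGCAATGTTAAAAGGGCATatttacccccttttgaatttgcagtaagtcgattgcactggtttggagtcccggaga

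Tug1, a lncRNA involved in chromatin regulation, had 2 reads in WT A and 0 in WT B, against 2 and 0 in miR-379KO A and B. All 4 segments were genome-contained and 12 to 14 nt long, 2 of them own-locus, among them that of miR-452-5p.

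The target genes whose miRNA partners were most like those of Malat1, by the cosine of reads per miRNA over 62 genes with at least 50 reads, were n-R5-8s1 (0.32), Gm37194 (0.20) and Col4a2 (0.12), against a median of 0.009 over these genes. The shared miRNA of all 3 was miR-1966-3p, whose Malat1 segments were genome-contained. Neat1 (0.02) and Gas5 (0.03) were far less alike to Malat1.

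Other lncRNAs were read in lists. Of 20 other snoRNA host lncRNAs, 10 were listed with 203 reads, led by Snhg11 (74), Snhg1 (55), Snhg5 (35) and Snhg12 (15). Of 11 miRNA host lncRNAs, 5 were listed with 20 reads, led by Dleu2 (12), and of 22 other well-known lncRNAs 6 were listed with 34, led by Rpph1 (24) and Jpx (6). Of the 5, 1 and 1 genes of these lists that were tested, 0 rose and 0 fell, with a median log2 fold change of 0.07 for the snoRNA hosts against 0.25 over all genes.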

How the data were processed

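AGO2-CLASH chimeric reads of WT and miR-379KO MMC were analysed, with genotype and letter taken from the sample labels. The authors joined the read pairs, dropped joined reads with an alignment to genome or transcripts, and compared what was left with mature miRNAs and with transcripts, in both orientations. The submitters' processing notes name Bowtie2 2.1.0, GRCm38.p5 and mm10. Deposited counts say how often a joined sequence was read, without normalization. The score and the minimum free energy of a pair were deposited by the authors without a named tool or unit.

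Each distinct read was counted once per gene and library. Shares are per 10000 chimeric reads, with 95% Clopper-Pearson intervals (scipy 1.17.1). The test per gene was that of edgeR 4.0.16 under R 4.3.3 (quasi-likelihood, TMM, genotype only, Benjamini-Hochberg, threshold 0.05) where at least 10 reads were counted. The steps were tested on simulated data. Reads were placed by the deposited positions and found again in GRCm38 with its annotation. The deposited start above the end was read as antisense. Each miRNA segment was compared with GRCm38 together with 10 nt of the read on each side. Of 22 miRNAs looked up in the RefSeq table, 17 had a sequence, and the 10 on which results turn are printed. Tables were made with Python 3.11.15, pandas 2.3.3, numpy 2.4.6, numba 0.67.0 and pysam 0.24.0, plots with matplotlib 3.10.9.

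The lncRNAs and the gene lists were chosen with earlier results of these data known. The miRNAs named by rule were the 5 with most reads over the lncRNAs (with a tie at the fifth), the first of each lncRNA with at least 3 reads, and those whose gene lies in a lncRNA or in the miR-379 cluster. At most 2 reads per lncRNA were printed by rule (long sense segments, longest first). The 3 genes most like Malat1 were taken by cosine. Other miRNAs and reads were named after their values were seen. The letters do not state a pairing. Over the 686 genes the deviations of same-letter libraries correlated at r = -0.06. Alternatives were a replicate block, DESeq2 1.42.0, no TMM, no minimum, leaving out each library, and counting or alignment rules. Added after seeing the data were the fit without genome-contained segments and the share without own-locus and snoRNA reads.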

Additional observations from a re-analysis of the deposited data

How the results depend on the processing

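The log2 fold changes of Malat1, Neat1 and Gas5 kept their direction and stayed short of the threshold under every alternative in which they were tested (Gas5 had no value with reads listed with a single gene). Leaving out a library leaves 1 library in that genotype, which is then assumed to vary like the libraries of the other one, so calls and p-values of these fits rest on the spread of 2 libraries and are no check of stability. Leaving out each library in turn gave 0.17 to 0.45 for Malat1, 0.51 to 1.20 for Neat1, and -1.69 to -0.43 for Gas5. For Kcnq1ot1 (-0.23 to 0.41) and Rian (-0.84 to 1.34) the range covers the other 3 libraries, since without WT A, which holds 7 of 16 and 12 of 19 of their reads, both fell under the minimum of 10 reads. Rian, with 19 reads, changed direction in 8 settings, among them without WT B (0.52) and without miR-379KO A (1.34). It was 0.057 without TMM, 0.48 without the minimum count, 0.44 with alignments without mismatch or gap, 0.69 with reads listed with a single gene, 0.12 with both segments in sense and 0.11 with each distinct sequence counted once. Kcnq1ot1 turned to -0.26 with both segments in sense and to -0.23 without miR-379KO A. The cause was not tested. Without TMM the median of all genes was 0.34, and without the minimum count 2.1.

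With the library letter as a replicate block, which the labels do not state to be a pairing, 0 genes were called, 14 had an unadjusted p under 0.05, and the log2 fold changes were 0.41 for Malat1, 0.97 for Neat1, -0.97 for Gas5, -0.20 for Rian and 0.22 for Kcnq1ot1. DESeq2 called 0 genes, with 8 unadjusted. Leaving out a library gave 0 to 4 called genes, with 4 without WT B, and reads listed with a single gene gave 1. Named after their values were seen, these were AA474408, Gm12895, Gm12896 and mt-Rnr1 without WT B, and Rusc2 with single-gene listings, all higher in miR-379KO. Some unadjusted edgeR p-values of the lncRNAs fell under 0.05. For Gas5 they were 0.015 with each distinct sequence counted once (adjusted 0.54), 0.016 without WT A (0.43), 0.023 with alignments of at least 16 nt (0.67), 0.041 without genome-contained segments (0.94) and 0.044 without miR-379KO A (0.996). For Neat1 they were 0.0082 without WT B (adjusted 0.22) and 0.016 without the minimum count (0.78).

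The share of the lncRNAs per 10000 reads moved to 287 in WT and 304 in miR-379KO with miRNA alignments of at least 16 nt, to 267 and 272 without mismatch or gap, to 311 and 284 with both segments in sense, and to 148 and 74.9 without own-locus and snoRNA reads. It was 189.4 and 212.3 without reads whose extended miRNA segment matches the genome. With reads listed with a single gene it was 215 and 129. Leaving out a library gave 189 to 249 in WT and 164 to 218 in miR-379KO, and a share of sense targets of 99.2% to 99.5%. With alignments of at least 16 nt all targets were in sense (100%) and the median MFE was -22.97. Seed positions 2 to 8 gave a seed match share of 15.8%. Meg3, Tug1 and H19, with 6, 4 and 1 reads, lay under the minimum of 10 reads and were not tested.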
